A study of Mus musculus with 4 samples.

Results

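The genes described here are the mouse counterparts of the genes lost in the human 22q11.2 deletion, with Tbx1 left out. Of 36 genes listed, 33 had a row of the expression table that carries their symbol alone, among 22180 named genes in all. Each of the 33 rests on 1 transcript cluster, the set of probes that reads 1 annotated transcript unit. Dgcr8 and Gp1bb were read by rows that also carry a neighbouring gene, Mir1306 and Septin5, and are given apart. Cltcl1 was not analysed here. In the RefSeq table of assembly GRCm38.p6, 34 of the listed genes lie on chromosome 16 and 1, Clec2l, lies on chromosome 6, so Clec2l does not match the label of the group.

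The study hybridised RNA of 4 groups to the Affymetrix Mouse Gene 2.0 ST platform, with 1 array each. The groups were Tbx1 knockout (KO) palatal shelves and wild-type (WT) palatal shelves at embryonic day 13.5 (E13.5), and KO heads and WT heads at E12.5. All embryos had a mixed C57BL/6J x FVB/N background. The sources used here do not give the allele, the sex or the number of embryos behind an array.

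The human deletion causes DiGeorge and velocardiofacial syndromes, with cleft or poorly closing palate, heart outflow defects and a small thymus. TBX1, a T-box transcription factor, lies inside the deleted interval, and a patient loses 1 copy of it together with its neighbours. The neighbours have unrelated roles, from microRNA processing and histone deposition to mitochondrial transport and cell adhesion. The Tbx1 knockout, unlike the deletion, is aimed at Tbx1 alone, and the comparison asks how the levels of the other genes stand without it.

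Several genes of the interval start back to back and share the short stretch between their starts. Such stretches of 3 pairs of orthologues, outside both gene bodies, are shown because their levels are compared below. They are from RefSeq, GRCm38.p6, plus strand, and the capitals mark a GC box (GGGCGG) or a CCAAT box (CCAAT) on either strand. They lie at chr16:18348099-18348181, chr16:18876638-18876749 and chr16:18248695-18248846.
Tango2 and Arvcf: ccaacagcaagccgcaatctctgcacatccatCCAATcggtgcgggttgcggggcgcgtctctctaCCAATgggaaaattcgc
Mrpl40 and Hira: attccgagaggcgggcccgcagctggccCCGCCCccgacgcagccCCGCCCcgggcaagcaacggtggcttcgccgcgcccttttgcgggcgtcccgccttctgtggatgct
Ranbp1 and Trmt2a: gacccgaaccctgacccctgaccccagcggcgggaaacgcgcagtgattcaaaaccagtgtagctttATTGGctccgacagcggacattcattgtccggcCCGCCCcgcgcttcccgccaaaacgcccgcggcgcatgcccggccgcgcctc
The 83 bases between Tango2 and Arvcf held 2 CCAAT boxes, no GC box and 7 CG dinucleotides. The 112 bases between Mrpl40 and Hira held 2 GC boxes, no CCAAT box and 15 CG dinucleotides, and the 152 bases between Ranbp1 and Trmt2a held 1 of each box and 19 CG dinucleotides. Promoter windows, from 250 bases before to 50 after a start, were matched for 34 of the 36 genes, some with several starts and some overlapping those of a neighbour. A GC box was in 30 of their 42 windows (71.43%), against 46.2% of windows of all protein-coding genes, and a CCAAT box in 18 (42.86%), against 38.19%. The T-box half-site AGGTGTGA, or its complement TCACACCT, was in 0 of the 42 windows and in 1.15% of protein-coding windows.

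Values are log2 levels made by RMA, and a gene entered a pair if either array was at or above 6.16, the median of named genes. Of the 33 genes read, 24 entered in the shelves, 25 in the head and 23 reached the limit on all 4 arrays. The arrays had medians between 5.64 and 5.70 over all clusters. With 1 array per group, a difference within a pair has no replicate check and no p-value, and precision is limited by how few arrays there are. In these bulk samples, fewer cells of a type and less RNA per cell cannot be told apart. The tissue labels were set against marker genes with the limma fit described below. These markers were chosen with earlier results of these data known, so they are not an independent check of the labels. At a limma adjusted p under 0.05, 6 of 7 palatal mesenchyme and 7 of 7 epithelial markers were higher in the shelves, against 13% of all genes. At the same limit 11 of 11 neuronal and 4 of 4 forebrain markers were lower, against 14.9%. Of the forebrain markers, 4 entered in the head and 2 in the shelves, and of the epithelial markers 5 and 7. Those that entered in 1 tissue alone could be tested only through the tissue in which they were higher.

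The orthologues lay close to their WT levels in KO shelves and KO heads, beside a much lower Tbx1 in the shelves. None of the 24 that entered in the shelves differed by 1.5-fold, where 3.25% of 11449 genes did. In the head none of the 25 did, against 0.458% of 11364 genes. For sets this small, finding none lies near these shares and does not set the orthologues apart. The largest difference was 1.30-fold in the shelves (Slc25a1) and 1.18-fold in the head (Cdc45). Tbx1 itself was 2.32-fold lower in KO shelves and 1.49-fold lower in KO heads.

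Differences of the orthologues centred near 0. Their median log2 difference, KO minus WT, was 0.017 in the shelves, against 0.021 over all genes that entered, and -0.042 in the head, against -0.017. Their SD was 0.154 in the shelves, against 0.259 over all genes, and 0.111 in the head, against 0.157. In the shelves 14 of 24 were above 0 (58.3%), against 55.2% of all genes. In the head 6 of 25 were above 0 (24%), against 44.5% of all genes, and the sizes were small, from -0.23 to 0.23. Of the 23 that entered both pairs, 7 were below 0 in both, against 25.5% of all such genes, and 3 were above 0 in both, against 25.7%. Opposite signs were found in 13 of 23 (56.5%), against 48.7%. Opposite signs with both differences at 1.2-fold or more were found in 0 of the 23 and in 0.777% of all such genes.

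**Figure D1:**
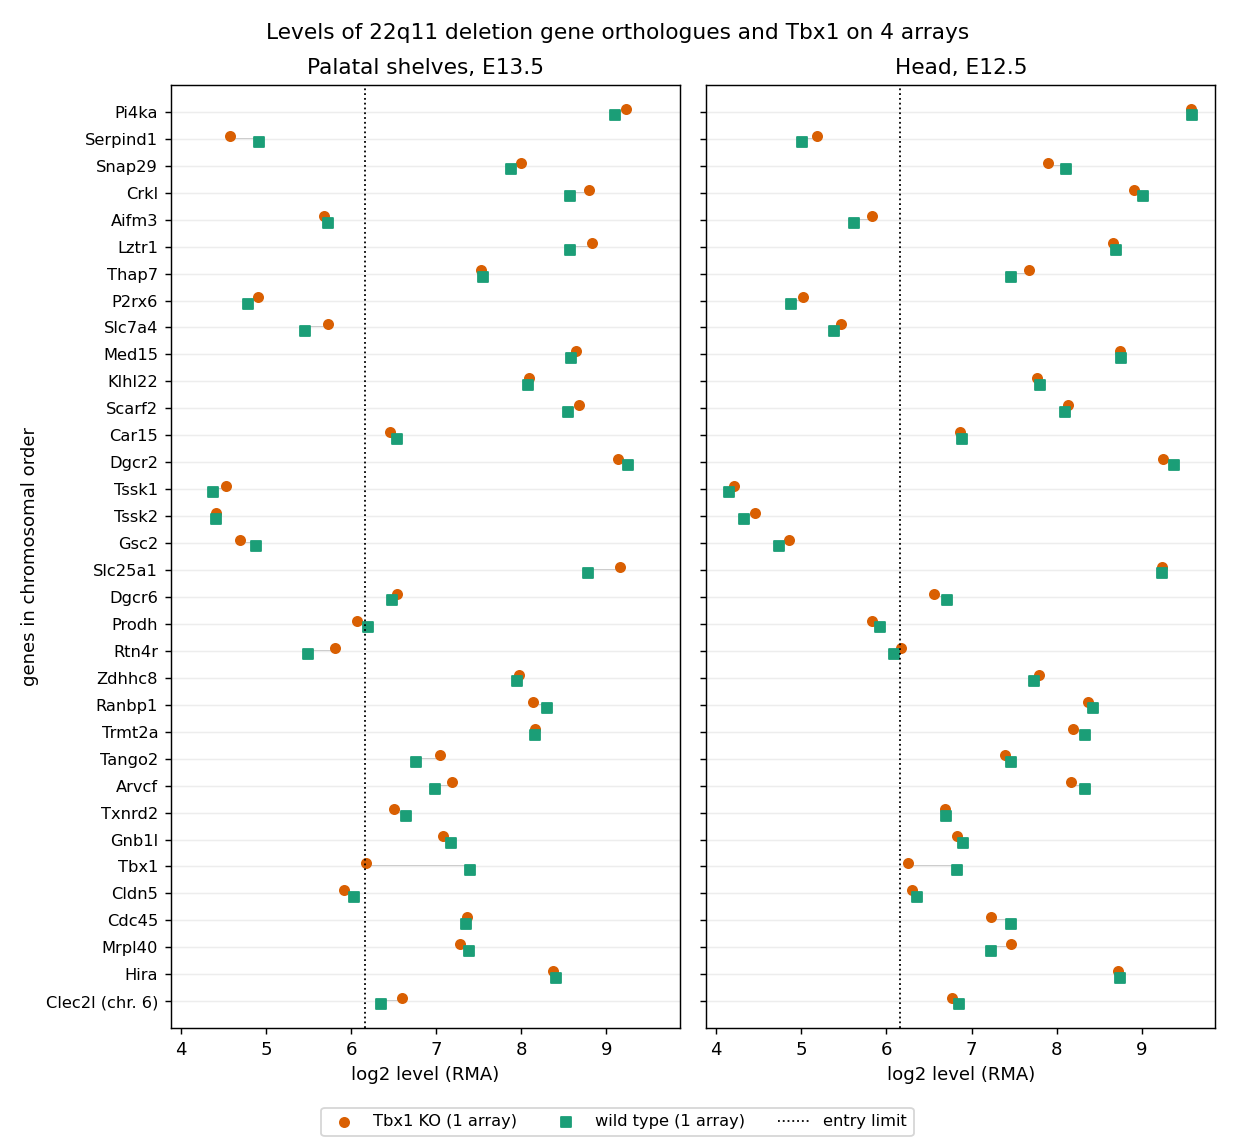
Log2 RMA levels (horizontal axes) of the 33 orthologues read and of Tbx1, in chromosomal order, on the KO array (circles) and the WT array (squares) of the palatal shelves at E13.5 and of the head at E12.5. The dotted line is the entry limit of 6.16, and the 2 symbols of a gene lie close together except for Tbx1.

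**Figure D2:**
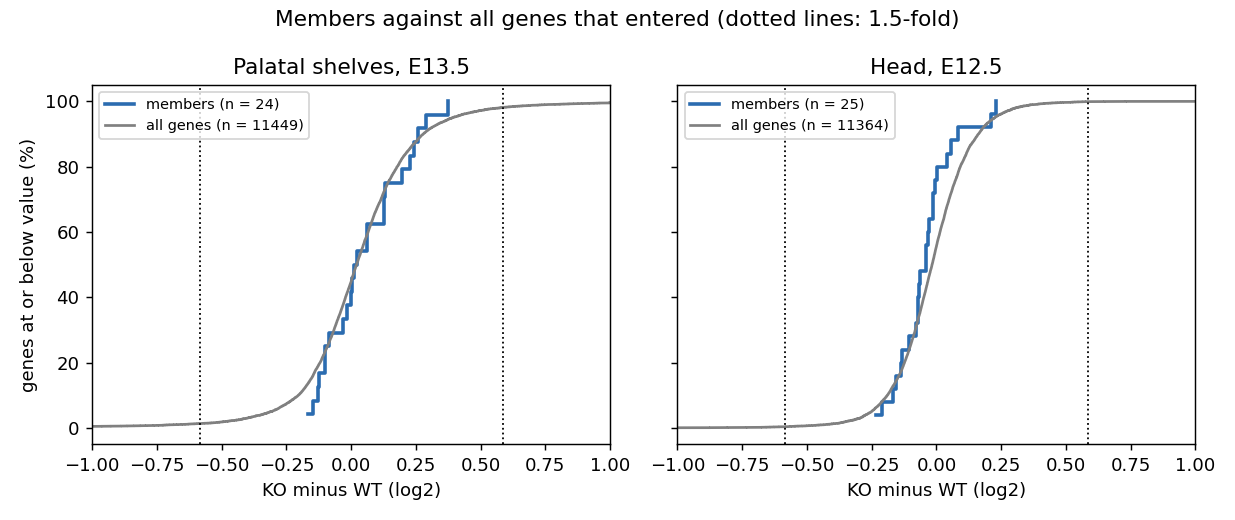
Share of genes (percent, vertical axis) at or below a given log2 difference, KO minus WT (horizontal axis), for the orthologues (members in the legend) and for all genes that entered, in the palatal shelves and in the head. All orthologues lie between the dotted lines at 1.5-fold.

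Across both pairs, no orthologue passed the test for genotype. Tbx1 itself, at -0.89, did not pass it either (limma adjusted p 0.555), so not passing does not show an unchanged level. The test was an additive limma fit of genotype and tissue on all 4 arrays, with 1 residual degree of freedom and a prior drawn from all genes (5.49 degrees of freedom, SD 0.107). Of 26 orthologues tested among 11999 genes, 0 had a limma adjusted p under 0.05, as did 0% of all genes, and 0 had an unadjusted limma p under 0.05, against 5.23% of all genes. Their estimates ran from -0.13 (Dgcr2) to 0.20 (Rtn4r), with SEs between 0.0987 and 0.123. The 95% intervals of all 26 lay within 1.5-fold, with outer bounds of -0.37 and 0.48. How many of all genes have such intervals was not counted, so this does not set the orthologues apart. These intervals rest mostly on the prior and assume that the orthologues vary like other genes on these arrays. The p-values rest on how far the KO difference departs between shelves and head, and on the prior, not on replicates. The fit takes the KO difference to be the same in both tissues, so a difference between tissues counts as spread.

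Among the listed genes, Tbx1 has Gnb1l on one side, and Gp1bb with Septin5 on the other. Gnb1l, a protein with WD repeats, had levels of 7.08 in KO shelves and 7.18 in WT shelves, and of 6.83 in KO heads and 6.90 in WT heads. The row shared by Gp1bb and Septin5 had 7.49 in KO shelves and 7.40 in WT shelves, and 8.22 in KO heads and 8.25 in WT heads. Both neighbours thus differed by less than 1.1-fold between genotypes, in the shelves and in the head. Gp1bb encodes a subunit of the platelet receptor for von Willebrand factor and Septin5 a septin of neurons and platelets, and the row cannot tell them apart. Next in order, Txnrd2, the mitochondrial thioredoxin reductase, was at a log2 difference of -0.15 in the shelves and -0.0058 in the head. Cldn5, the tight junction protein of endothelium, was at -0.11 in the shelves, where it did not enter, and -0.066 in the head.

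**Figure D3:**
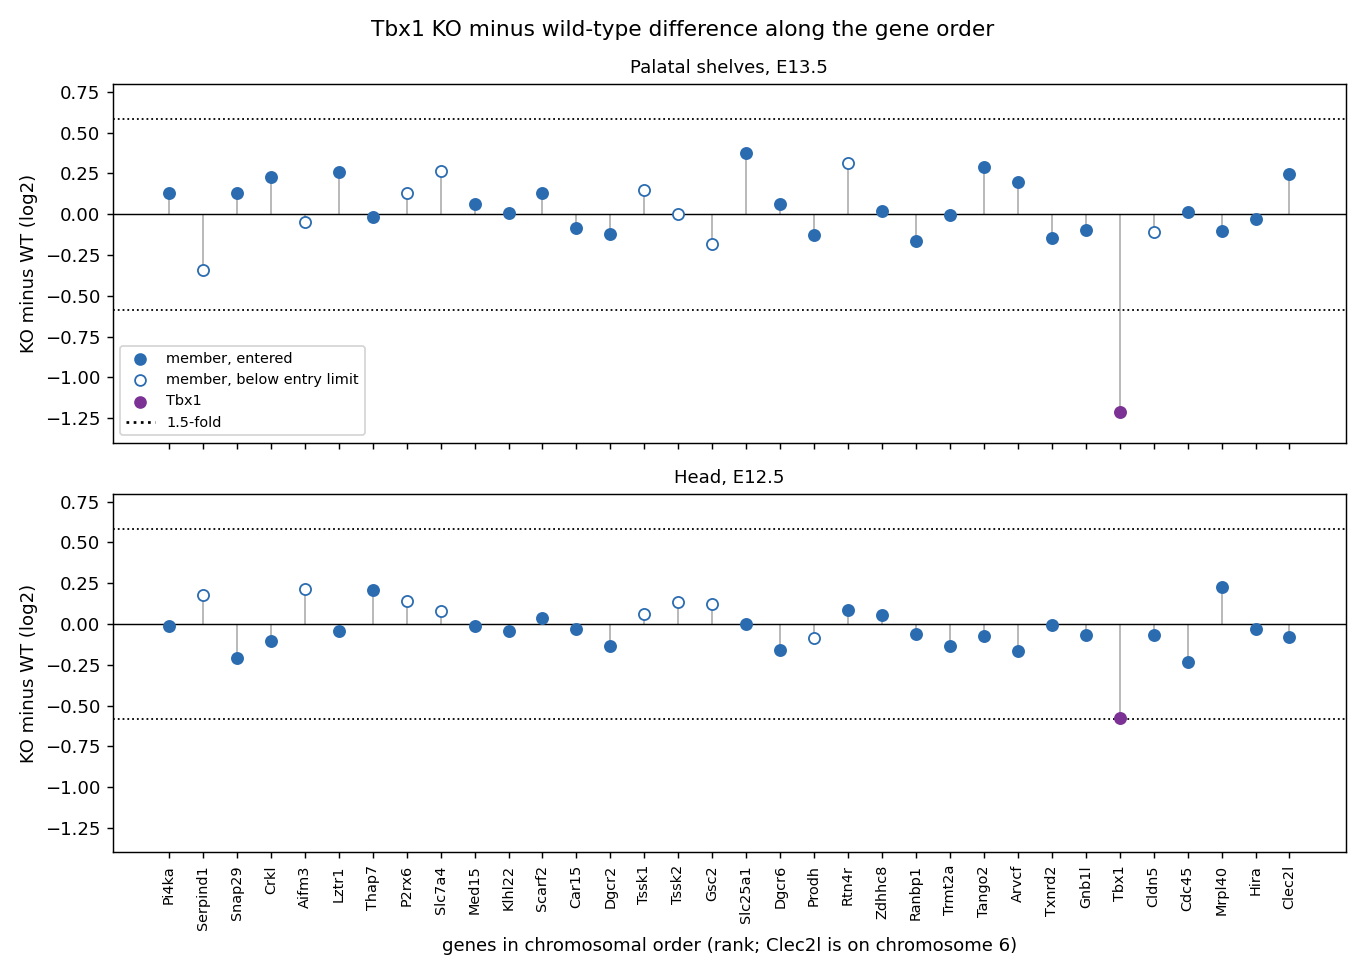
Log2 difference, KO minus WT (vertical axes), of each orthologue and of Tbx1 in chromosomal order, in the palatal shelves and in the head. Open circles are genes below the entry limit in that pair, and only Tbx1 in the shelves lies beyond the dotted 1.5-fold lines.

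Among genes that act in the nucleus, differences were small. Hira, which deposits the histone variant H3.3, had levels of 8.37 in KO shelves and 8.40 in WT shelves, and of 8.72 in KO heads and 8.75 in WT heads. Med15, a Mediator subunit that links transcription factors to RNA polymerase II, was at 0.062 in the shelves and -0.015 in the head. Neither gene differed by more than 1.05-fold in either pair. Thap7, a zinc finger corepressor, was at -0.016 in the shelves and 0.21 in the head. The row shared by Dgcr8, the RNA-binding partner of Drosha in microRNA processing, and Mir1306 had 8.85 in KO shelves and 8.77 in WT shelves, and 8.77 in KO heads and 8.83 in WT heads.

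The genes of cell division were near or below their WT levels, and the largest gap was in Cdc45 of the head. Cdc45, a subunit of the helicase that unwinds DNA at replication forks, had levels of 7.36 in KO shelves and 7.34 in WT shelves, and of 7.23 in KO heads and 7.47 in WT heads. Its head difference of -0.23 was the lowest of the orthologues that entered. Ranbp1 binds Ran, a GTPase of nuclear transport. It had 8.13 in KO shelves and 8.30 in WT shelves, and 8.37 in KO heads and 8.43 in WT heads. Its shelf difference of -0.17 was the lowest of the orthologues that entered there. A list of other replication genes held parts of the helicase and factors that load or activate it. In the shelves 1 of 13 of these genes was above 0 (median -0.088), against 55.2% of all genes. In the head 0 of 13 were (median -0.088), against 44.5%. Gins3 was at -0.21 in the shelves and -0.23 in the head, and Mcm3 at -0.22 and -0.15. None of the 13 passed for genotype, with a smallest limma adjusted p of 0.919.

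Crkl, Lztr1 and Pi4ka, genes of signalling, were slightly above WT in the shelves and slightly below it in the head. Crkl, the adaptor that carries signals from FGF and other receptors and is itself tied to heart and thymus defects of the deletion, had 8.79 in KO shelves and 8.57 in WT shelves. In the head it had 8.91 in KO and 9.02 in WT. Lztr1, which directs RAS proteins to degradation, had 8.84 in KO shelves and 8.58 in WT shelves, and 8.66 in KO heads and 8.70 in WT heads. Pi4ka, the lipid kinase that makes phosphatidylinositol 4-phosphate at the plasma membrane, was at 0.13 in the shelves and -0.014 in the head. Klhl22, a substrate adaptor of cullin 3, and Zdhhc8, a palmitoyltransferase, stayed within 1.05-fold in both pairs. None of the 5 genes reached 1.2-fold in either pair.

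Of the orthologues that entered in the shelves, Slc25a1 and Tango2, both of metabolism, differed most. Slc25a1, the carrier that exports citrate from mitochondria, had 9.15 in KO shelves and 8.78 in WT shelves, a 1.30-fold difference, and 9.24 in both the KO and the WT head. The KO shelves thus lay near both head arrays and the WT shelves below the other 3. Tango2, a gene of lipid and heme handling, had 7.05 in KO shelves and 6.76 in WT shelves (1.22-fold), and 7.39 in KO heads and 7.46 in WT heads. Of the orthologues that entered in the shelves, Slc25a1 and Tango2 were the 2 at least 1.2-fold higher in KO shelves, where 11.2% of all genes were. None that entered was 1.2-fold lower there, against 6.83% of all genes, and none reached 1.2-fold either way in the head, against 7.77%. Over both pairs Slc25a1 was at 0.19 (SE 0.12) with a limma adjusted p of 0.961. Prodh, the first enzyme of proline breakdown, was at -0.13 in the shelves and did not enter in the head, with levels of 6.07 in KO shelves and 6.19 in WT shelves. Mrpl40, a protein of the mitochondrial ribosome, had 7.28 in KO shelves and 7.38 in WT shelves, and 7.46 in KO heads and 7.23 in WT heads, a difference of 0.23 that was the highest among those that entered in the head. Trmt2a, a methyltransferase of transfer RNA, was at -0.0023 in the shelves and -0.14 in the head, and Car15, a membrane-bound carbonic anhydrase, at -0.085 and -0.029.

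Genes of the cell surface and of trafficking did not share a direction. Arvcf, a catenin that binds the tails of cadherins, was at 0.20 in the shelves and -0.17 in the head. Dgcr2, a membrane protein thought to act in adhesion, was at -0.12 in the shelves and -0.13 in the head. Scarf2, a scavenger receptor whose loss in people causes a syndrome with craniofacial malformation, was at 0.13 in the shelves and 0.039 in the head. Snap29, a SNARE of membrane fusion, was at 0.13 in the shelves and -0.21 in the head, so its sign differed between the tissues. Rtn4r, the Nogo receptor that limits axon growth, had 5.81 in KO shelves and 5.50 in WT shelves, both below the entry limit, and 6.17 in KO heads and 6.09 in WT heads. Dgcr6 was at 0.061 in the shelves and -0.16 in the head, and Clec2l, a C-type lectin gene off the interval, at 0.24 and -0.078.

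Below the entry limit on all 4 arrays were 7 orthologues, with levels between 4.15 and 5.83. They were Tssk1 and Tssk2, kinases of the testis, Serpind1, the plasma protease inhibitor heparin cofactor II, Gsc2, a homeobox gene related to goosecoid, P2rx6, an ATP-gated channel subunit, Slc7a4, a putative amino acid transporter, and Aifm3, a relative of apoptosis-inducing factor. Their differences ran from -0.34 (Serpind1) to 0.26 (Slc7a4) in the shelves and from 0.061 to 0.21 in the head. RMA compresses folds at such levels, and these genes were left out of the counts and the limma fit.

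The shelves and the head differed more than the genotypes did. In the same limma fit, 8 of 26 orthologues had an adjusted p under 0.05 for shelves minus head, where 27.9% of all genes did. Of these, 1 was higher in the shelves, against 13% of all genes, and 7 were lower, against 14.9%. Rtn4r and Cldn5, among the 7, reached the entry limit in the head alone, so they could be tested only through the tissue in which they were higher. Of the 23 orthologues that entered both pairs, 5 passed as lower, against 13.2% of all such genes, and 1 as higher. At 1.5-fold 1 was lower, against 8.99% of all genes. The share called, 8 of 26, lay near the background, and the median of -0.13 compares with -0.020 over all genes. Tissue and stage changed together here and cannot be told apart.

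Arvcf was the orthologue with the largest difference. Its levels were 7.18 in KO shelves and 6.99 in WT shelves, against 8.17 in KO heads and 8.33 in WT heads. It was 2.24-fold lower in the shelves, a log2 difference of -1.16 (SE 0.12) with a limma adjusted p of 0.000874. Tango2 was 1.44-fold lower (log2 difference -0.52, SE 0.12, limma adjusted p 0.0204), with levels of 7.05 and 6.76 in KO and WT shelves, against 7.39 and 7.46 in KO and WT heads. Rtn4r was at -0.47 (SE 0.11, limma adjusted p 0.0194), with only the KO head, at 6.17, above the entry limit. Pi4ka, with 9.23 in KO shelves and 9.10 in WT shelves, against 9.58 in KO heads and 9.59 in WT heads, fell by 0.42 (SE 0.10, limma adjusted p 0.0239). Car15 was at -0.38 (limma adjusted p 0.0331) and Hira at -0.35 (limma adjusted p 0.0421). Cldn5, below the limit on both shelf arrays, was at -0.36 (limma adjusted p 0.0393). With no filter on dim genes, Arvcf alone of these 7 kept a limma adjusted p under 0.05, at 0.00446, and Tango2 had 0.0648. Rtn4r and Cldn5 also missed it with a mean-variance trend (limma adjusted p 0.0832 and 0.129), and Hira with repeated quantile normalization (0.0604). For Hira the KO and the WT arrays gave the same difference to 2 decimals, -0.35 each.

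Scarf2 was the one orthologue that passed as higher in the shelves. It had 8.68 in KO shelves and 8.55 in WT shelves, against 8.13 in KO heads and 8.09 in WT heads, a 1.42-fold difference (log2 difference 0.50, SE 0.10, limma adjusted p 0.0116). Klhl22 (0.30) and Gnb1l (0.26) were also above 0 but did not pass, with limma adjusted p of 0.0665 and 0.0935. Of the 26 tested, 21 had shelves minus head differences of 1 sign in the KO and in the WT arrays. The same share over all genes was not counted, so this number does not set the orthologues apart. The row of Gp1bb and Septin5 was outside the test, and at levels of 7.49 and 7.40 in KO and WT shelves, against 8.22 and 8.25 in KO and WT heads, it was 1.73-fold lower in the shelves. The row of Dgcr8 and Mir1306 differed by 0.0084 on the log2 scale.

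Neuronal markers differed between the same arrays as some of these genes. Their mean log2 level over 11 genes was 8.42 in KO shelves and 7.82 in WT shelves, against 10.19 in KO heads and 10.17 in WT heads, and 10 of 11 reached the limit in each shelf array. All 11 were lower in the shelves by the limma test, and 10 of 11 were above 0 in KO minus WT shelves (median 0.58), with Ina, a neuronal intermediate filament, at 1.48. Arvcf, Tango2, Pi4ka and Rtn4r were likewise lower in the shelves than in the head. They had KO minus WT shelf differences of 0.20, 0.29, 0.13 and 0.31. Hira, Car15 and Cldn5, which were lower in the shelves too, had -0.032, -0.085 and -0.11. Rtn4r and Cldn5 were below the entry limit on both shelf arrays. The part of neuronal tissue in these values was not tested.

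**Figure D4:**
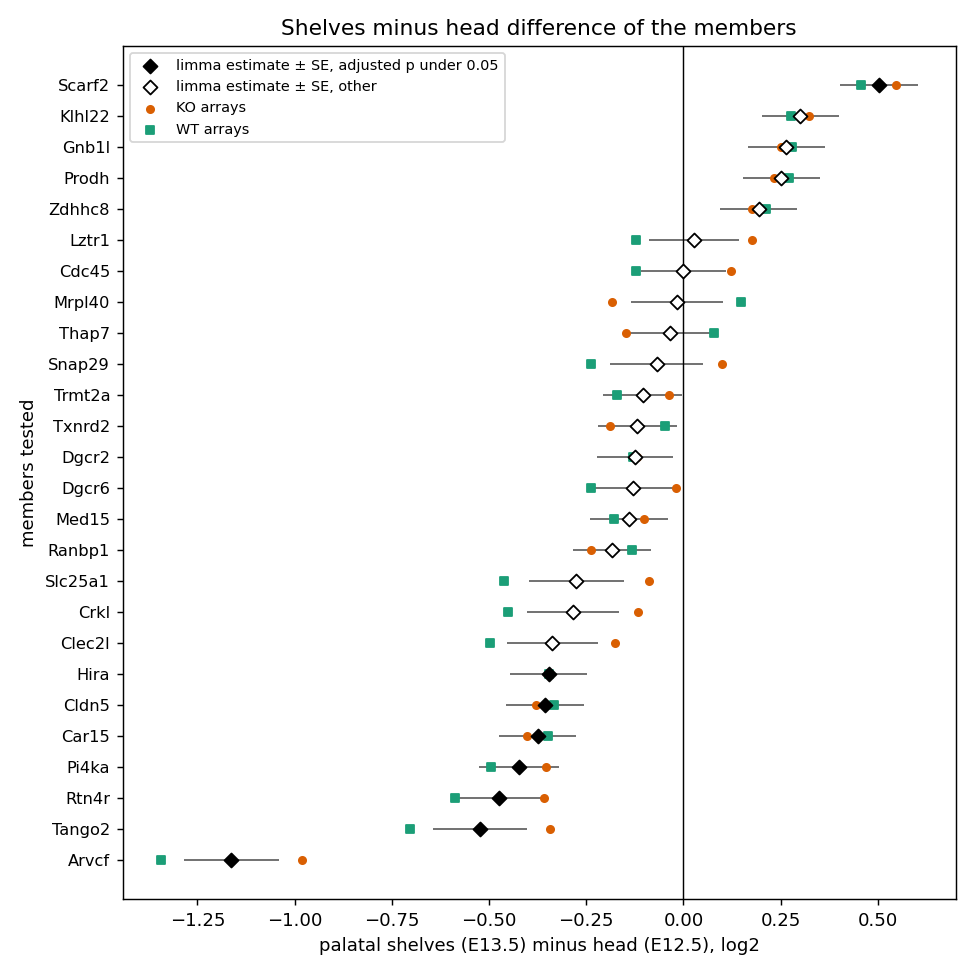
Palatal shelves (E13.5) minus head (E12.5) on the log2 scale (horizontal axis) for the 26 orthologues tested, as limma estimates with SE (diamonds, filled where the adjusted p is under 0.05) and for the KO arrays and the WT arrays alone. Arvcf at -1.16 and Scarf2 at 0.50 are the ends of the range.

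The back-to-back pairs shown at the opening were compared gene by gene. Tango2 and Arvcf, either side of the stretch with 2 CCAAT boxes, shared their sign in each of 3 comparisons. Both were lower in the shelves (-0.52 and -1.16), above 0 in KO minus WT shelves (0.29 and 0.20) and below 0 in KO minus WT heads (-0.071 and -0.17). Mrpl40 and Hira were both below 0 in KO minus WT shelves (-0.10 and -0.032) but had opposite signs in the head. Mrpl40 was at -0.018 in shelves minus head, against -0.35 for Hira, and at 0.23 in KO minus WT heads, against -0.031. Ranbp1 and Trmt2a were below 0 in all 3 comparisons, at -0.18 and -0.10 in shelves minus head, at -0.17 and -0.0023 in KO minus WT shelves and at -0.062 and -0.14 in KO minus WT heads. Among all orthologues, 20 of 26 were below 0 in shelves minus head, 19 of 25 in KO minus WT heads and 10 of 24 in KO minus WT shelves. Whether the genes of a pair move together beyond chance was not tested.

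Other genes of the same pathways and of the neighbouring interval were read from lists. The remaining interval genes had medians of -0.087 in the shelves and -0.0078 in the head over 4 genes, among them Ufd1, a cofactor of the p97 segregase (-0.10 in the shelves and -0.019 in the head), and Ess2 (-0.076 and 0.00026). Genes of the distal 22q11 segment had medians of -0.032 over 6 genes in the shelves and 0.12 over 7 in the head, with Ypel1 at -0.022 and 0.40. Partners of Dgcr8 in microRNA processing had medians of 0.059 and -0.033 over 13 genes, with the Argonaute gene Ago3 at 0.17 and 0.30, and partners of Hira -0.016 and -0.11 over 5, with Ubn1 at -0.023 and -0.37. None of these genes reached 1.5-fold in either pair. Genes around Crkl had medians of 0.075 in the shelves and -0.072 in the head over 8 genes, with Gab1, a docking protein of growth factor receptors, at 0.28 and -0.20.

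The remaining lists also had medians near 0. In the shelves and in the head, medians were -0.077 and -0.034 for the Ran cycle (6 genes), -0.039 and -0.017 for Mediator (27 genes) and -0.0076 and -0.071 for the large mitochondrial ribosome subunit (36 genes). They were -0.066 and -0.15 for platelet glycoproteins (2 genes), -0.047 and -0.11 for the Nogo receptor pathway (4 genes) and 0.029 and -0.023 for proline metabolism (3 genes). They were -0.10 and 0.00064 for redox partners of Txnrd2 (5 genes), 0.024 and -0.014 for RAS regulation (8 genes) and -0.035 and -0.026 for phosphoinositide kinases and their partners (7 genes). Of all genes on the pathway lists, 1 reached 1.5-fold in a pair it entered. It was Rit2, a neuronal relative of RAS, with 6.21 in KO shelves and 4.61 in WT shelves, and 6.40 in KO heads and 6.31 in WT heads. Its WT shelf array lay below the limit, beside the neuronal markers given above. No gene on them passed for genotype in the limma fit.

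**Figure D5:**
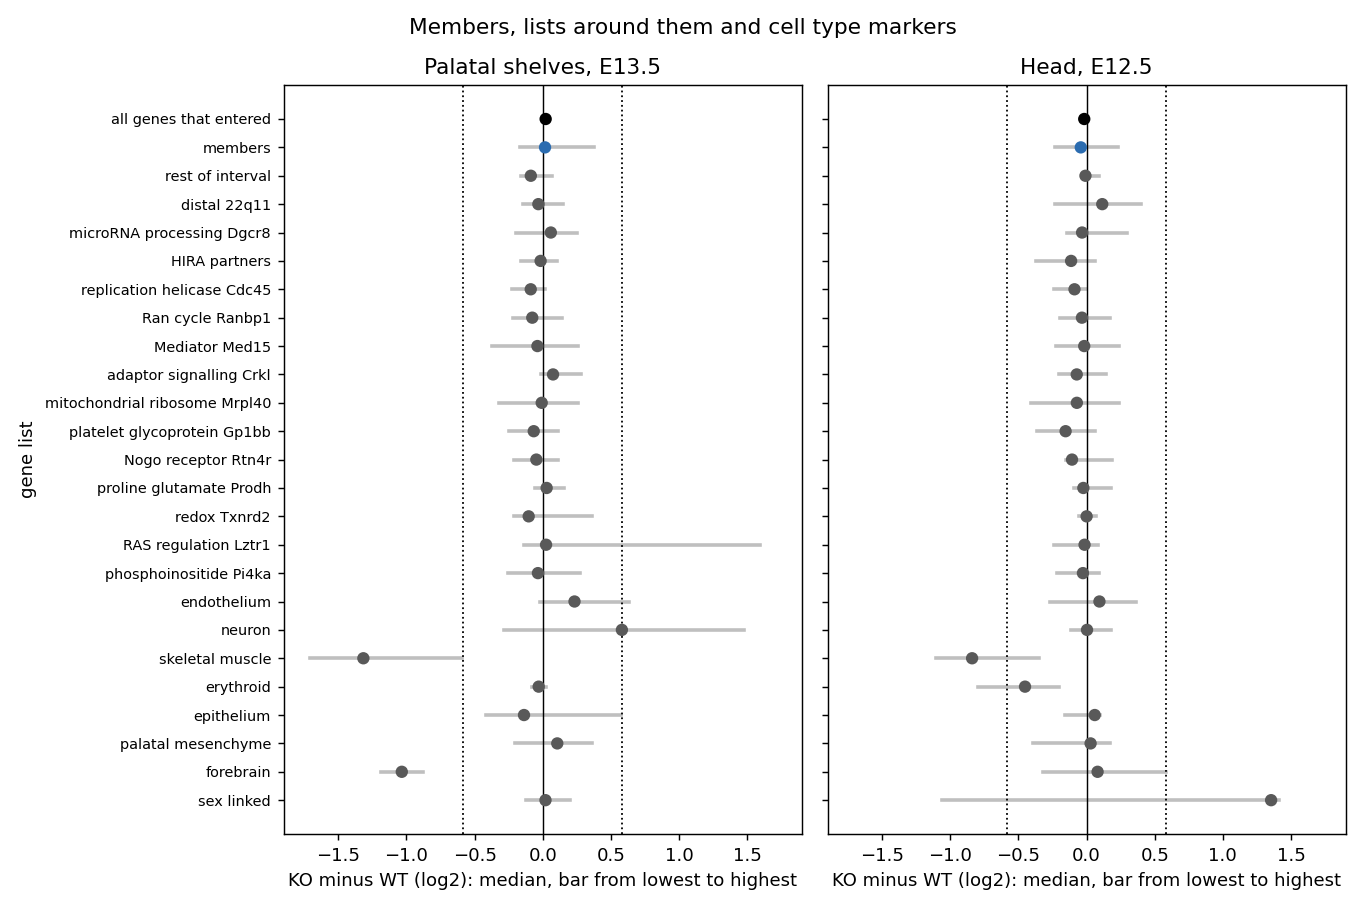
Median log2 difference, KO minus WT (horizontal axes), of the orthologues, of the lists around them and of cell type marker lists, in the palatal shelves and in the head, with bars from the lowest to the highest gene that entered. The orthologue medians of 0.017 and -0.042 lie near those of all genes, while skeletal muscle markers lie at -1.32 and -0.84.

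The skeletal muscle markers had the largest median gap between KO and WT shelves among the cell type lists, -1.32. They had a mean level of 5.94 in KO shelves and 7.19 in WT shelves, and of 6.48 in KO heads and 7.29 in WT heads. At or above the limit were 3 of 10 in KO shelves and 10 of 10 in WT shelves, and 7 of 10 in KO heads and 10 of 10 in WT heads. Endothelial markers had a median of 0.23 in the shelves, with 10 of 11 above 0, and of 0.095 in the head, with 8 of 12 above 0. The receptor genes Flt1 and Kdr were at 0.63 and 0.49 in the shelves, while Cldn5, also an endothelial gene, was at -0.11 there. Epithelial markers had medians of -0.14 and 0.060, palatal mesenchyme markers of 0.11 and 0.030, and erythroid markers of -0.030 and -0.45 in the shelves and in the head. Forebrain markers had a median of -1.03 over 2 genes in the shelves and 0.081 over 4 in the head. Sex-linked genes had medians of 0.020 and 1.35, with Eif2s3y, a gene of the Y chromosome, at 0.20 in the shelves and 1.41 in the head. In the head 3 of the 4 were at least 1.5-fold higher and 1, Xist, the RNA of the inactive X chromosome, was at -1.06, a gene singled out after its value was seen. The part of any of these in the orthologues' values was not tested.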

How the data were processed

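The authors deposited log2 expression values per transcript cluster, produced by RMA in Affymetrix Expression Console, according to the submitters' processing notes. The sources used here give no version, genome build or annotation. RMA sets the arrays to 1 common distribution, which removes a shift shared by most genes, and compresses folds of dim genes. Groups come from the sample titles. The description field calls the E13.5 samples heads too, and the titles were followed.

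Of 41345 clusters, 23521 had 1 gene symbol in the platform annotation, and clusters of 1 gene were averaged. All 33 orthologues read matched RefSeq (GRCm38.p6) by Entrez identifier with the same symbol. Genes counted from 1.5-fold within a pair. limma 3.58.1 (R 4.3.3) fitted genotype and tissue over 11999 genes with Benjamini-Hochberg adjustment, and was tested on simulated data. The text names all members, Tbx1 and, of each of 15 pathway and 8 marker lists, up to 3 genes, from those with the largest difference in either pair. Alternatives changed the normalization, filter, fold limit, cluster choice and variance model. Members and lists were chosen with earlier results of these data known. No replicates exist within a group, so p-values describe these arrays.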

Additional observations from a re-analysis of the deposited data

How the results depend on the processing

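The count of orthologues at 1.5-fold stayed 0 in both pairs under median centring, repeated quantile normalization, cyclic loess, taking each gene's brightest cluster, either filter and without Clec2l (an alternative chosen after seeing the data), and at a 2-fold limit. At a 1.2-fold limit 2 were higher in KO shelves. Their median difference ran from -0.029 to 0.062 in the shelves and from -0.061 to -0.023 in the head. No orthologue passed for genotype under any alternative, with a smallest limma adjusted p of 0.871 (mean-variance trend). For shelves minus head, 1 higher and 1 lower passed with no filter on dim genes, in which 33 orthologues are tested among all genes, 2 higher and 3 lower with the upper-quartile filter, where 14 are tested, and 2 higher and 7 lower with a mean-variance trend. Under the trend Rtn4r and Cldn5 no longer passed (limma adjusted p 0.0832 and 0.129), while Crkl, Slc25a1 and Klhl22 did (0.0395, 0.0447 and 0.0304), and the cause was not tested. Repeated quantile normalization gave 6 lower, without Hira (0.0604), and 1 common variance gave 5 lower, without Cldn5 (0.0612) and Hira (0.0699). Arvcf and Scarf2 passed under every alternative run. With the brightest cluster 6 lower passed, since Rtn4r was then below the entry limit. Rtn4r, Tango2, Pi4ka, Car15, Cldn5 and Hira did not pass with no filter (limma adjusted p of 0.0659, 0.0648, 0.0804, 0.106, 0.12 and 0.127). Of the estimates near 0, 3 changed sign. Lztr1 was at -0.012 with arrays centred on their medians, and Cdc45 at 0.017 and Mrpl40 at 0.00073 with repeated quantile normalization. No replicate could be left out, and dim genes have only compressed differences. No paired analysis was possible because the labels carry no replicate numbers and each group has 1 array.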
